A study of Mus musculus with 24 samples.

Results

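Unipolar brush cells are excitatory interneurons of the cerebellar granular layer, most abundant in the vestibular lobules. Each receives a single mossy fiber on a brush-shaped dendrite and relays it to granule cells. They arise from the rhombic lip, and in mice they are recognized by the T-box transcription factor gene Eomes (Tbr2), the LIM-homeodomain gene Lmx1a and Calb2, which encodes the calcium-binding protein calretinin. None of the 3 is exclusive to them, since Lmx1a is also a gene of the roof plate and the choroid plexus lineage and Calb2 is also expressed by granule cells. These 3 genes, matched by symbol among the 54232 genes of each library, were followed across the genotypes to ask whether a fall in this cell type accompanied the fall of the nicotinic receptor genes Chrna3 and Chrnb4 in SCA1 mice.

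RNA from the whole cerebellum of 24 mice aged 6 weeks was sequenced, 1 library per mouse, on a C57BL/6J background. There were 8 WT mice (Atxn1_2Q/2Q), 4 SCA1 mice carrying 1 expanded allele (Atxn1_154Q/2Q), 4 SCA1 S776A mice with the S776A mutation on that allele (Atxn1_154Q[S776A]/2Q), 4 S776A double mice with it on both alleles (Atxn1_154Q[S776A]/2Q[S776A]) and 4 WT S776A homozygous mice with no expansion (Atxn1_2Q[S776A]/2Q[S776A]). The repeat is knocked into the endogenous gene, so ATXN1 with the expansion is made wherever Atxn1 is expressed, and S776A exchanges a phosphorylated serine of ATXN1 for alanine. Libraries fell into 2 inferred batches: WT mice 1 to 4 and the 12 mice with an expanded allele formed batch 1, and WT mice 5 to 8 and the WT S776A homozygous mice formed batch 2, so each genotype was compared with the 4 WT mice of its own batch.

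Between 62163600 and 88430180 fragments were counted on genes per library, and all 3 genes passed the expression filter, which kept 22502 genes. Levels are given as CPM, fragment counts scaled to library size. Atxn1 itself was between 47.9 and 69.5 CPM in all mice, and gene counts do not show the repeat or the S776A change, so they do not check the genotype labels. In whole tissue, fewer cells of a type and less RNA per cell cannot be told apart.

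The 3 genes stood at very different levels. Per length, as TPM (fragments divided by exon length and scaled to a fixed total), Calb2 had a median of 1315 over the 24 mice, Eomes 19.1 and Lmx1a 1.75, in the same order in every library. The fewest fragments in any library were 28457 for Calb2, 715 for Eomes and 46 for Lmx1a. Their spread between mice of one genotype differed as well: the fitted biological coefficient of variation was 10.4% for Calb2, 37.4% for Eomes and 41.3% for Lmx1a, beside 12.5% for the median gene. The intervals around changes of Calb2 were accordingly the narrowest of the 3.

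Eomes (ENSMUSG00000032446.14, GRCm38, chromosome 9, 118478212 to 118486132, plus strand) encodes a T-box transcription factor by which unipolar brush cells are recognized in mice. Its last 574 bases lie under the antisense gene Gm33460, which had 5 to 22 fragments per library, and counting ignored strand, so fragments in that stretch could not be assigned to either gene. The 250 bases upstream of its RefSeq start (GRCm38.p6, chr9:118477939-118478188, plus strand) are shown because the other transcription factor among the 3 genes, LMX1A, is a homeodomain protein. Capitals mark the 5-letter homeodomain core TAATT on either strand.
Eomes: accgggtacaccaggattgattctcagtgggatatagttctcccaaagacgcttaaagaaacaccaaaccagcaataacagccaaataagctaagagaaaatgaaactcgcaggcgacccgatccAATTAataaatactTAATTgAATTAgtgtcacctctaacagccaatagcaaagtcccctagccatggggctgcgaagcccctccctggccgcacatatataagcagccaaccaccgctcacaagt
The core matched 3 times, while the Lmx1a window held none. Of all 32851 windows of this length, 25.0% held it at least 1 time. How many held 3 or more matches was not counted. The Capicua sites TGAATGAA and TGAATGGA (Capicua is the repressor that ATXN1 binds) and the T-box half-site GGTGTGA were absent from both windows and present in 1.08%, 1.01% and 3.33% of all windows on either strand. A match is a run of letters and not a measured site.

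In the WT mice of batch 1, Eomes was 10.6, 12.6, 15.8 and 35.1 CPM. The SCA1 mice had 10.5, 25.0, 14.5 and 10.5 CPM. WT mouse 4 stood far above the other 3 WT mice, and the SCA1 values fell in and just below the WT range. The mean was 15.2 ± 6.86 CPM in SCA1 and 18.5 ± 11.3 CPM in WT (SD, n = 4 each). The log2 fold change was -0.29 (SE 0.39, 95% interval -1.11 to 0.53), with an adjusted p of 0.888 in edgeR's quasi-likelihood test. This estimate turned on single mice: it was 0.21 without WT replicate 4 and -0.66 without SCA1 replicate 2.

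SCA1 S776A mice had 13.1, 12.8, 22.4 and 27.0 CPM of Eomes, and S776A double mice had 24.8, 12.2, 17.9 and 17.9 CPM. Both genotypes lay within the range of their WT mice. The log2 fold changes were 0.02 (95% interval -0.79 to 0.84) and -0.03 (95% interval -0.84 to 0.79). Leaving out WT replicate 4 moved them to 0.54 and 0.48, and their lowest values were -0.20 (without SCA1 S776A replicate 4) and -0.22 (without WT replicate 1).

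In batch 2, Eomes was higher in all groups. The WT mice had 49.8, 38.8, 26.8 and 41.0 CPM, and the WT S776A homozygous mice 26.2, 13.7, 28.2 and 28.3 CPM. Of the 4 homozygous mice, 2 lay below every WT mouse and the other 2 above the lowest of them. The log2 fold change of -0.70 (SE 0.38, 95% interval -1.50 to 0.11) was the largest fall of a member in any comparison with WT, and it did not pass the test (edgeR adjusted p of 0.522). The exact two-sided permutation test over these mice gave p = 0.0857 and an adjusted p of 0.321 over the 15 tests run on the members. The unadjusted edgeR p was 0.0861 in the fit of all mice and 0.0115 with batch 2 alone (log2 fold change -0.71, adjusted p of 0.777). DESeq2 gave an unadjusted p of 0.0803 with batch and 0.0312 after ComBat-seq (adjusted p of 0.872 and 0.236).

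Lmx1a (ENSMUSG00000026686.14; chromosome 1, 167689237 to 167848741, plus strand) specifies roof plate and rhombic lip derivatives. It was 1.05, 0.858, 2.87 and 2.53 CPM in the WT mice of batch 1 and 2.34, 3.71, 1.50 and 3.64 CPM in the SCA1 mice. The WT mice thus split into a low and a high pair, and 2 SCA1 mice exceeded all WT mice. The log2 fold change was 0.61 (SE 0.42, 95% interval -0.27 to 1.50), with an adjusted p of 0.770 in edgeR's test. It ranged from 0.38 without WT replicate 2 to 0.91 without WT replicate 3.

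The SCA1 S776A mice had 0.699, 2.27, 2.25 and 1.69 CPM of Lmx1a. The S776A double mice had 1.26, 0.603, 2.56 and 1.96 CPM. Each of these groups held 1 mouse below all WT mice and none above them. Log2 fold changes were -0.08 (95% interval -0.98 to 0.82) and -0.20 (95% interval -1.10 to 0.70). In batch 2, WT mice had 1.70, 1.03, 1.83 and 1.60 CPM and WT S776A homozygous mice 1.00, 1.31, 1.49 and 1.27 CPM, overlapping ranges with a log2 fold change of -0.28 (95% interval -1.20 to 0.63).

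Calb2 (ENSMUSG00000003657.9; chromosome 8, 110137502 to 110168210, minus strand) was the member with the least spread, and the one for which SCA1 and WT mice were apart. WT mice of batch 1 had 466, 473, 434 and 472 CPM. SCA1 mice had 642, 570, 621 and 634 CPM. All 4 SCA1 mice lay above all 4 WT mice, so Calb2 was higher where the receptor genes were lower. The means were 617 ± 32.5 CPM in SCA1 and 461 ± 18.4 CPM in WT mice (SD, n = 4 each). Granule cells also express Calb2, and whole tissue does not show which cells its RNA came from.

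The higher level of Calb2 in SCA1 mice did not meet the call used here, an adjusted p under 0.01 with an absolute log2 fold change over 0.5. Its log2 fold change was 0.42 (SE 0.10, 95% interval 0.22 to 0.62), its edgeR p of 0.00028 ranked 99th of the 22502 genes, and its adjusted p was 0.0635. With batch in the fit, DESeq2 gave an adjusted p of 0.00811 at 0.42, still under the fold limit. The exact two-sided permutation test gave p = 0.0286, the smallest that 4 mice against 4 can give, and an adjusted p of 0.181 over the 15 tests. A fit without the batch term lowered the estimate to 0.11, because it also set the SCA1 mice against the WT mice of batch 2.

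In SCA1 S776A mice Calb2 was 569, 524, 474 and 499 CPM, again above all 4 WT mice but close to them (exact two-sided permutation p = 0.0286, and an adjusted p of 0.181 over the 15 tests). S776A double mice had 417, 642, 600 and 469 CPM, on both sides of the WT range. Log2 fold changes were 0.16 (95% interval -0.04 to 0.37) and 0.21 (95% interval 0.00 to 0.41), with edgeR adjusted p of 1.00 and 0.716. The second was 0.10 without S776A double replicate 2 and 0.30 without S776A double replicate 1. Against SCA1 mice directly, Calb2 was lower by a log2 fold change of -0.26 (95% interval -0.46 to -0.05) in SCA1 S776A mice and -0.21 (95% interval -0.42 to -0.01) in S776A double mice, and neither passed after adjustment (edgeR adjusted p of 1.00 for both). Leaving out the same S776A double mice gave -0.31 and -0.11.

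WT S776A homozygous mice had 636, 689, 730 and 826 CPM of Calb2, and the WT mice of batch 2 had 702, 691, 696 and 639 CPM. The ranges overlapped, and the log2 fold change was 0.08 (95% interval -0.13 to 0.28), or 0.0024 without WT S776A homozygous replicate 4. The order of Calb2 levels within batch 1 was SCA1, S776A double, SCA1 S776A and WT, in which S776A double mice overlapped both neighbours and SCA1 S776A mice did not overlap WT mice.

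**Figure D1:**
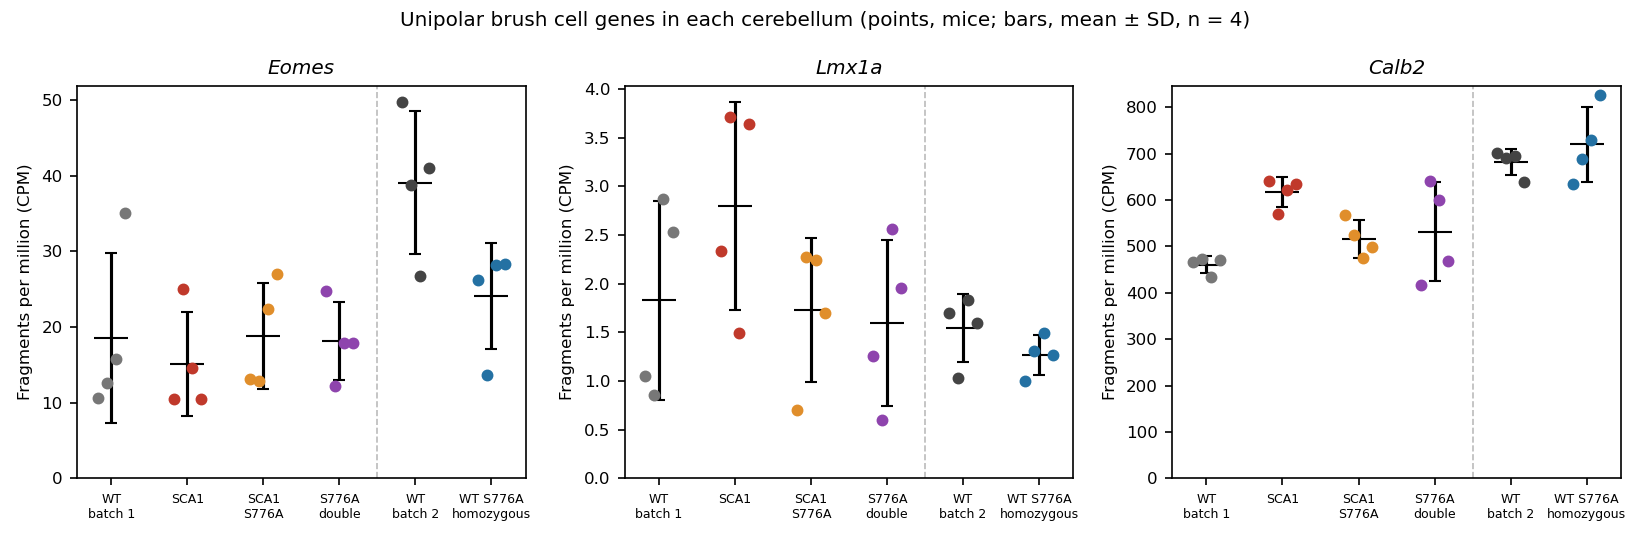
Level of each of the 3 genes in CPM (vertical axes, starting at 0) in each mouse, by genotype, with the mean and SD of 4 mice, and with batch 2 to the right of the dashed line. The SCA1 mice of Eomes lie in and just below the range of their WT mice and 2 of the 4 of Lmx1a lie above it, whereas all 4 of Calb2 (570 to 642 CPM) sit above the WT mice of batch 1 (434 to 473 CPM).

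Counted over the comparisons, 0 of the 3 genes were called in SCA1 mice by edgeR (0.173% of all genes tested were called), 0 in SCA1 S776A mice (0.0133%), 0 in S776A double mice (0.0267%) and 0 in WT S776A homozygous mice (0%). DESeq2 with batch and DESeq2 after ComBat-seq also called 0 members by the same rule. At an unadjusted edgeR p under 0.05, 1 member, Calb2, passed in SCA1 mice and in S776A double mice, both upward, beside 8.25% and 6.93% of all genes. At that level 0 members passed in SCA1 S776A mice (3.93% of all genes) and in WT S776A homozygous mice (9.98%). With the 12 mice carrying an expanded allele pooled against the 4 WT mice, the log2 fold changes were -0.10 for Eomes, 0.11 for Lmx1a and 0.26 for Calb2, 0 members were called (0.0978%) and Calb2 alone passed unadjusted (7.67%). Between the expanded genotypes, 0 members were called in SCA1 S776A against SCA1 mice (0.00444%), in S776A double against SCA1 mice (0%) and in S776A double against SCA1 S776A mice (0%).

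The nicotinic receptor subunit genes behaved differently. Chrna3, which encodes an alpha subunit, was 1.99, 2.08, 2.21 and 1.53 CPM in the WT mice of batch 1 and 0.738, 0.449, 0.584 and 0.374 CPM in SCA1 mice. Chrnb4, the neighbouring beta subunit gene, was 1.78, 2.74, 1.57 and 1.02 CPM in WT and 0.599, 0.515, 0.399 and 0.401 CPM in SCA1 mice. For both genes every SCA1 mouse lay below every WT mouse. Their log2 fold changes were -1.86 (95% interval -2.23 to -1.50) and -1.89 (95% interval -2.41 to -1.36), with edgeR adjusted p of 1.2e-06 and 0.000164. Chrna5, the third gene of the cluster, stayed between 0.0139 and 0.210 CPM and was not tested.

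Set beside these in the fit of all 24 mice, the lower 95% limit in SCA1 mice was -1.11 for Eomes, -0.27 for Lmx1a and 0.22 for Calb2. Each was above the upper 95% limit of Chrna3 (-1.50) and of Chrnb4 (-1.36). Intervals were not computed for the fits that left out 1 mouse. In those fits Eomes went down to -0.66 (without SCA1 replicate 2) and Chrnb4 up to -1.61 (without WT replicate 2). In SCA1 S776A mice Chrna3 fell by 1.08 on the log2 scale and in S776A double mice by 1.08 (edgeR adjusted p of 0.0076 and 0.00388). The first of these calls ended with the mice of batch 1 alone (adjusted p of 0.0253) and in 13 of 24 fits that left out 1 mouse, those without WT replicate 1, 2 or 3 or any SCA1 S776A mouse among them, and the second in 6 of 24, those without WT replicate 1, 2 or 3 or S776A double replicate 1, 2 or 3. The estimates stayed between -1.20 and -1.01 and between -1.19 and -1.02 in these fits. Chrnb4 had -1.24 (95% interval -1.74 to -0.74) and -1.27 (95% interval -1.76 to -0.77), with edgeR adjusted p of 0.0808 and 0.0355.

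In the same genotypes the intervals of Eomes ended at -0.79 and -0.84, just inside those of Chrna3, whose upper limits were -0.73 and -0.74, and of Chrnb4. For Lmx1a the intervals ended at -0.98 and -1.10, so in S776A double mice a fall as large as that of Chrna3 lay inside its interval, and one as large as that of Chrnb4 did not. For Calb2 they ended at -0.04 and 0.00, above those of both receptor genes. Granule cells also express Calb2, so its intervals, here and in SCA1 mice, do not bound a change in unipolar brush cells. In WT S776A homozygous mice Chrna3 had a log2 fold change of 0.34 (edgeR adjusted p of 0.494) while Eomes had -0.70.

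**Figure D2:**
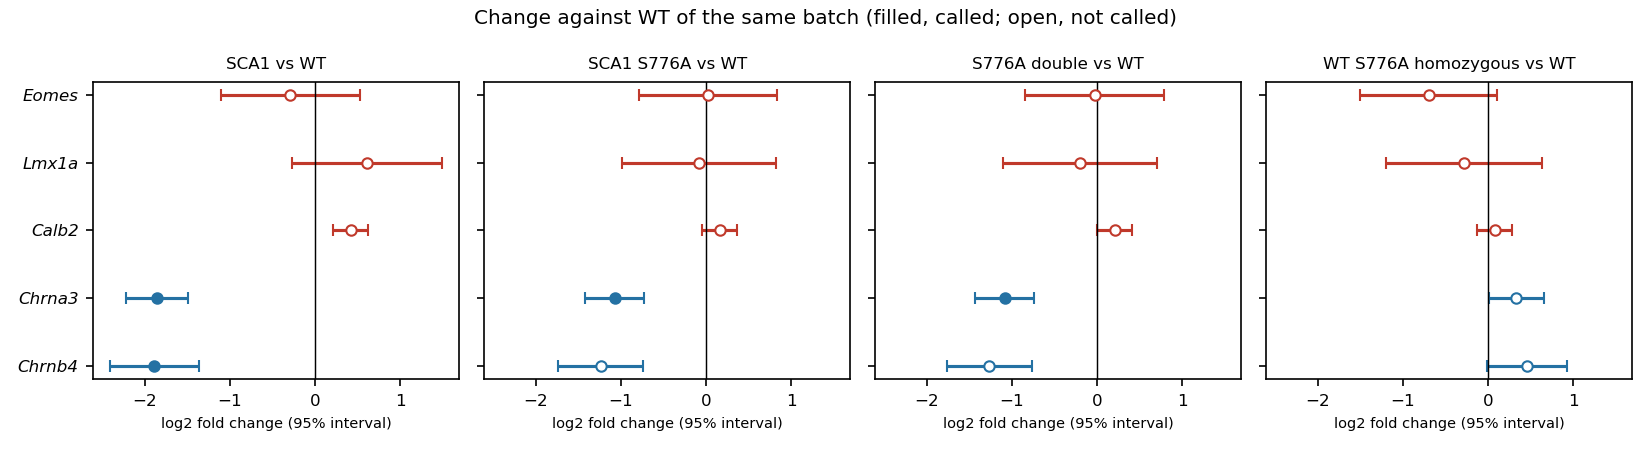
Log2 fold change against WT of the same batch (horizontal axes) with 95% intervals for the 3 genes (red) and for Chrna3 and Chrnb4 (blue), with filled points for called genes. In SCA1 mice the nicotinic genes sit near -1.9, below the intervals of Eomes (-1.11 to 0.53), Lmx1a (-0.27 to 1.50) and Calb2 (0.22 to 0.62).

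Mouse by mouse, the 3 genes were compared with each other and with Chrna3 and Chrnb4 as deviations from the mean of their genotype and batch, in 9 relations over 24 mice. None passed adjustment over the 9 (permutation tests within genotype and batch, lowest adjusted p of 0.269). The relation furthest from 0 was that of Eomes with Chrnb4, with r = -0.53 and rho = -0.44 (permutation p = 0.0408 and 0.0618), and r = -0.46 without the 2 mice farthest from the median of Eomes. Eomes and Chrna3 had r = -0.44 and rho = -0.45 (permutation p = 0.0801 and 0.0462), and r = -0.26 without those 2 mice.

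The 3 members did not track each other closely. Eomes and Lmx1a had r = 0.39 and rho = 0.30 (permutation p = 0.126 and 0.223), Eomes and Calb2 r = -0.34 and rho = -0.33 (permutation p = 0.0896 and 0.161), and Lmx1a and Calb2 r = -0.28 and rho = -0.18 (permutation p = 0.362 and 0.466). Leaving out the 2 farthest mice gave r of 0.27, -0.39 and 0.04. The 4 remaining relations, of Lmx1a and Calb2 with the 2 receptor genes, had r between -0.17 and 0.12 (permutation p of 0.561 or more).

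Each member instead had its own set of genes with a like pattern. The 5 genes closest to Eomes over the 24 mice were Fem1c (r = 0.91), which encodes a substrate receptor of a ubiquitin ligase, Bdnf (0.89), a neurotrophin induced by neuronal activity, Homer1 (0.86), a postsynaptic scaffold gene with an activity-induced short form, Dnajb1 (0.86), a heat-shock co-chaperone, and Etv5 (0.85), an ETS transcription factor. Bdnf, for example, was 15.8 to 27.8 CPM in the WT mice of batch 1. Fem1c was highest, at 97.1 CPM, in WT mouse 4, the mouse with the most Eomes in that group. These values describe deviations that share libraries and depth, and the genes were picked for them.

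For Lmx1a the closest genes were Myo5b (r = 0.96), an unconventional myosin of epithelial vesicle recycling, Rd3 (0.95), Slit2 (0.95), an axon guidance ligand, Htr2c (0.94), a serotonin receptor abundant in choroid plexus, and Chia1 (0.94), a chitinase. Calb2 was closest to the histone gene Hist3h2ba (0.90), the growth cone gene Gap43 (0.90), the neuronal actin-binding gene Tagln3 (0.90), 2210016L21Rik (0.89) and Msra (0.89), a methionine sulfoxide reductase. In the other 2 members, the 5 genes closest to any one member had r between -0.47 and 0.41. Within batch 1 alone, r with their member was 0.85 or more for these 15 genes, but its 16 mice are among the 24 on which the genes were picked.

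**Figure D3:**
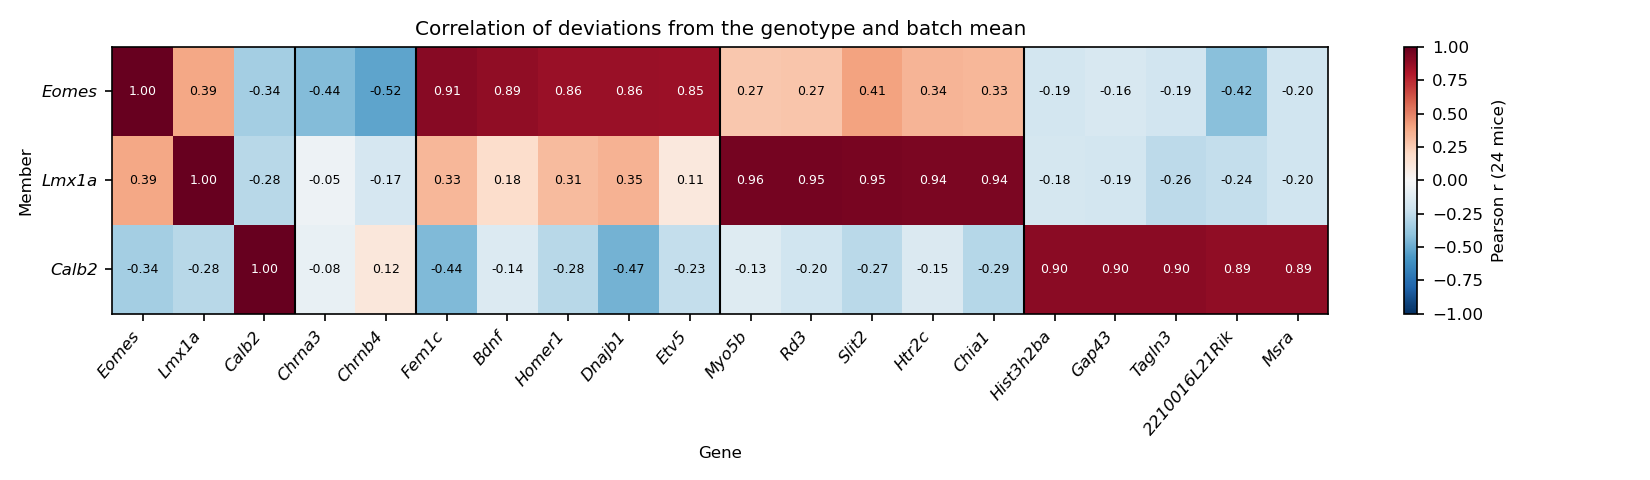
Pearson r over 24 mice between deviations of each of the 3 genes (rows) and, from left to right, the 3 genes themselves, Chrna3 and Chrnb4, and the 5 genes most like Eomes, Lmx1a and Calb2 (columns). Each member is strongly related (0.85 to 0.96) to its own 5 genes only, among those drawn, and the values between members are -0.34 to 0.39.

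Choroid plexus RNA moved with Lmx1a. Of 8 choroid plexus genes, Ttr, the transthyretin gene, ranged from 8.31 to 4859 CPM, and 5 mice had under 20 CPM of it: S776A double mice 1 and 2, SCA1 S776A mouse 1, WT mouse 2 and WT S776A homozygous mouse 1. Lmx1a was 0.603 to 1.26 CPM in those 5 mice and 1.03 to 3.71 CPM in the other 19. Within the 19, deviations of Lmx1a and of the mean of the 8 genes had r = 0.90 and rho = 0.79 (permutation p = 0.0025 and 0.00671, and adjusted p of 0.0075 and 0.0201 over the 3 members), with r = 0.80 without the 2 farthest mice. Eomes had r = 0.25 and Calb2 r = -0.06 in the same mice (permutation p = 0.528 and 0.758). This relation was examined after the likeness of Lmx1a to these genes had been seen.

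The summed level of the 8 choroid plexus genes was 907 to 5215 CPM (median 2378) in SCA1 mice, none of which was among the 5 with little Ttr, and 22.6 to 1775 CPM (median 990) in the WT mice of batch 1. None of the 8 was called in any comparison, and their median log2 fold change was 1.19 in SCA1 mice and -1.23 in WT S776A homozygous mice, beside 0.00 and 0.01 over all genes. With the mean log2 CPM of the 8 genes as a covariate, Lmx1a rose by a log2 change of 0.30 per log2 unit of that mean (edgeR adjusted p of 2.81e-06). Its log2 fold change in SCA1 mice then went from 0.61 to 0.12 (95% interval -0.32 to 0.55), and in WT S776A homozygous mice from -0.28 to 0.18. Calb2 stayed at 0.42 in SCA1 mice and Eomes moved from -0.29 to -0.41.

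**Figure D4:**
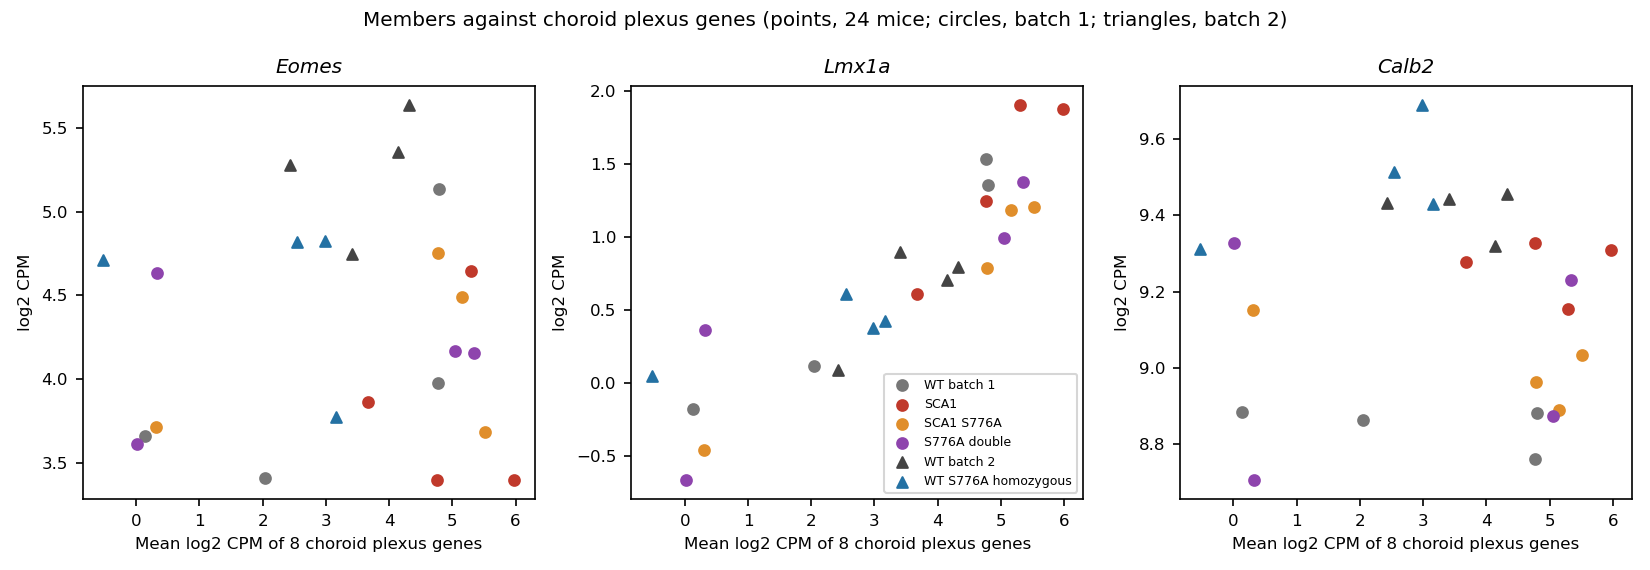
Log2 CPM of Eomes, Lmx1a and Calb2 (vertical axes) against the mean log2 CPM of 8 choroid plexus genes (horizontal axes) in 24 mice, by genotype. Lmx1a is low in the mice with little choroid plexus RNA and high in those with much, with r = 0.88 between the plotted levels of the 19 mice with at least 20 CPM of Ttr. For Eomes and Calb2 r was -0.20 and -0.42 there, and these levels also hold the differences between genotypes and batches.

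Of the other genes listed for unipolar brush cells, 8 are reported here. All 8 were tested and 0 were called in SCA1 mice, with 4 of 8 below WT and a median log2 fold change of 0.03 (0.00 over all genes). An unadjusted edgeR p under 0.05 was found for 2 of them, Otx2 and Pax6, both with positive values, beside 8.25% of all genes, and neither passed adjustment.

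Otx2, a homeobox gene of rhombic lip derivatives and choroid plexus, was 20.9 to 33.6 CPM in SCA1 mice and 13.7 to 22.2 CPM in the WT mice of batch 1, and its log2 fold change was 0.58 (95% interval 0.12 to 1.05, edgeR adjusted p of 0.437). Over the 24 mice its deviations had r = 0.88 with Lmx1a and 0.36 with Eomes. Pax6, a transcription factor gene of granule cells and unipolar brush cells, had a log2 fold change of 0.19 (edgeR adjusted p of 0.298), and its deviations had r = 0.79 with Calb2. The other 6, Grm2, Plcb1, Plcb4, Grp, Slc17a6 and Slc17a7, had log2 fold changes between -0.20 and 0.28. In each of the other 3 genotypes, 0 of the 8 were called.

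Of the 11 nicotinic receptor genes, 8 were tested. Chrna3 and Chrnb4 were called in SCA1 mice, Chrna3 alone in SCA1 S776A and in S776A double mice, and 0 in WT S776A homozygous mice. Chrnb4 missed the call in SCA1 S776A and S776A double mice with estimates of -1.24 and -1.27, further from 0 than those of Chrna3. DESeq2 with batch called it in both, and edgeR fits that left out 1 mouse called it in 0 and 1 of 24. Without WT replicate 2 its estimates were -0.95 and -0.98. The other 6 had log2 fold changes between -0.27 (Chrnb2) and 0.35 (Chrnb3) in SCA1 mice.

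Markers of the surrounding cells were read in the same fit. None of 7 granule cell genes was called in SCA1 mice, with a median log2 fold change of -0.06. The furthest were Fat2 at -0.24 and Cbln1 at -0.20, and 1 of the 7, Cbln1, had an unadjusted edgeR p under 0.05. All 6 Purkinje cell genes had negative values in SCA1 mice, with a median of -0.27, and 0 were called. The furthest were Itpr1 at -0.48 and Car8 at -0.29. Of these 6, 5 had an unadjusted edgeR p under 0.05, beside 8.25% of all genes. In the pooled expanded genotypes, 3 of the 7 granule cell genes and 3 of the 6 Purkinje cell genes did, all lower, beside 7.67% of all genes. Over the 24 mice, deviations of Calb2 had r from -0.25 (Etv1) to 0.68 (Cbln1) with the 7 granule cell genes. In batch 1 alone these were -0.57 and 0.90. With the 6 Purkinje cell genes r was from -0.78 (Itpr1) to 0.60 (Pcp4). The part of granule and Purkinje cells in the Calb2 difference was not tested. Lymphocyte markers summed to 0.129 to 0.395 CPM over all mice, and 1 of 7, Cd3e, passed the filter, at -0.33 in SCA1 mice. Genes listed for neighbouring tissue (brainstem and midbrain) summed to 6.05 to 12.5 CPM over the 8 reported here, most of it Th. Th was 5.03 to 11.1 CPM, whereas Slc6a3 of the same list was at most 0.127 CPM. Which cells Th came from was not tested, so the sum was not read as an amount of neighbouring tissue. In SCA1 mice 0 of the 5 tested were called, and 2 had an unadjusted edgeR p under 0.05, Th at -0.53 and Tph2 at 0.43. The furthest in the fit, Hoxb5 and Dbh, were at or under 3 fragments in 13 and 6 of the 24 mice.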

How the data were processed

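The authors deposited raw counts of fragments per gene, 1 table per library. The submitters' notes name Trimmomatic 0.36 for trimming, STAR 2.7.2d for alignment, the build GRCm38.p6 and DESeq2 1.28.1. The unstranded count was used. Of 54232 gene identifiers, 54165 matched GENCODE M21 without version numbers, and 1 more row, along with 3 genes of the marker lists, is not reported here, so the list counts leave them out. Sample titles carry an animal number each, so libraries were taken as separate mice. Batch is not in the labels and was inferred by k-means (k of 2, mean silhouette 0.634) on summary shares of the libraries; WT is the only genotype in both batches.

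Counts were scaled by TMM and tested in edgeR 4.0.16 (R 4.3.3; glmQLFit and glmQLFTest), with genotype and batch, on 22502 genes; p-values were adjusted over all of them (Benjamini-Hochberg). Simulated counts for SCA1 against WT held 22133 genes, 200 of them changed by 1 log2 unit. Of the changed genes 68% were called, or 94% of the 134 with at least 100 counts, and 0 unchanged genes were called. The changed genes were drawn at random from all genes, so these shares do not carry over to Eomes and Lmx1a. Their fitted biological coefficients of variation were 37.4% and 41.3%, beside 12.5% for the median gene. Log2 CPM used a prior count of 2. Permutation tests were two-sided, exact for groups and with 100000 resamples for correlations. Alternatives were DESeq2 1.42.0 with batch or after ComBat-seq (sva 3.50.0), no batch term, RLE size factors, no filter, the mice of one batch, leaving out each mouse, an adjusted p under 0.05, CPM without log, and, added after seeing the data, a choroid plexus covariate, ratios of Chrna3 to each member, and these alternatives for Chrna3 and Chrnb4. Named besides the members are Chrna3, Chrnb4, Chrna5 and Atxn1, the 5 tested genes most correlated with each member, and from each marker list the called genes and the 2 furthest from 0 in SCA1 mice; others were named after their values were seen. Members and lists were chosen with earlier results of these data known. Intervals cover 95%; promoter sequence is from RefSeq (GRCm38.p6), whose table used here held 2 of the 3 members (not Calb2).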

Additional observations from a re-analysis of the deposited data

Results flagged for a closer look

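Among 30 groups of 4 mice (the 3 genes, Chrna3 and Chrnb4 in each genotype and batch), 3 held a mouse far from the other 3, where chance alone gives about 1.5. Eomes was 3.77 on the log2 CPM scale in WT S776A homozygous mouse 2, against 4.71 to 4.83 in the other 3. Calb2 was 8.76 in WT mouse 3, against 8.86 to 8.88 in the other WT mice of batch 1, and 9.32 in WT mouse 8, against 9.43 to 9.45 in the other WT mice of batch 2. Leaving out WT S776A homozygous replicate 2 changed the log2 fold change of Eomes in that genotype from -0.70 to -0.51. For Calb2, leaving out WT replicate 3 changed it in SCA1 mice from 0.42 to 0.38, and leaving out WT replicate 8 changed it in WT S776A homozygous mice from 0.08 to 0.04.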

How the results depend on the processing

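No paired analysis was possible because the labels give no replicate numbers that genotypes share. None of the 3 genes was called in any comparison under any alternative. Of the 192 values from 8 alternatives other than leaving out a mouse, 12 changed sign against the values reported, all without a call. The alternative with an adjusted p under 0.05 uses the same fit, so its 24 values among the 192 could not change. Without the batch term, SCA1 S776A mice had log2 fold changes of -0.61 (Eomes), 0.038 (Lmx1a) and -0.15 (Calb2), and Calb2 had -0.10 in S776A double mice and -0.047 in the pooled expanded genotypes, since that fit adds WT mice of batch 2. With the choroid plexus covariate, Eomes had -0.027 in SCA1 S776A mice, 0.046 in S776A double mice and 0.072 in S776A double against SCA1 S776A mice, and Lmx1a had 0.18 in WT S776A homozygous mice, -0.12 in the pooled genotypes and 0.24 in S776A double against SCA1 S776A mice. Eomes in S776A double mice had 0.057 after ComBat-seq with DESeq2. Apart from these, the group means of Eomes in S776A double and WT mice, compared by the exact permutation test, differed by 0.0971 on the log2 CPM scale and by -0.317 CPM without the log (p = 0.829 and 0.971).

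Leaving out 1 mouse moved Eomes over -0.66 to 0.21 in SCA1, -0.20 to 0.54 in SCA1 S776A, -0.22 to 0.48 in S776A double, -0.29 to 0.41 in the pooled genotypes and -0.24 to 0.17 in S776A double against SCA1 S776A mice. Lmx1a moved over -0.31 to 0.22 in SCA1 S776A, -0.52 to 0.10 in S776A double, -0.12 to 0.41 in the pooled genotypes and -0.44 to 0.15 in S776A double against SCA1 S776A mice, where Calb2 moved over -0.060 to 0.14. The adjusted p of Calb2 in SCA1 mice ranged from 0.000293 (ComBat-seq with DESeq2) to 0.673 (no batch term).

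The number of genes called moved more. In SCA1 mice it was 39 with edgeR, 118 after ComBat-seq with DESeq2, 66 with DESeq2 and batch, 65 with batch 1 alone, 87 at an adjusted p under 0.05 with no fold limit, and 21 to 56 leaving out 1 mouse. In the same order, SCA1 S776A mice had 3, 32, 9, 0, 5 and 0 to 5 genes, and S776A double mice 6, 50, 19, 11, 18 and 3 to 10. WT S776A homozygous mice had 0 genes, or 99 after ComBat-seq. The pooled genotypes had 22, with 84 after ComBat-seq, 46 at an adjusted p under 0.05, 45 without the batch term and 12 to 29 leaving out 1 mouse. For SCA1 S776A against SCA1 mice the 1 gene became 11 after ComBat-seq, 4 with DESeq2 and 0 to 2 leaving out 1 mouse. For S776A double against SCA1 mice 0 became 4 after ComBat-seq, 1 with DESeq2, RLE size factors, no filter or an adjusted p under 0.05, and 0 to 1 leaving out 1 mouse, and for S776A double against SCA1 S776A mice 0 became 2 after ComBat-seq. The cause of these differences was not tested. The call of Chrna3 in SCA1 S776A mice also ended with the choroid plexus covariate (edgeR adjusted p of 0.0106).

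With an SE of 0.38 to 0.44 against WT, the 95% intervals reached down to between -0.79 and -1.50 for Eomes and between -0.27 and -1.20 for Lmx1a. With the choroid plexus covariate they reached between -0.76 and -1.39 for Eomes (-1.26 in SCA1 mice). For Lmx1a they then reached between -0.26 and -0.79 (-0.32 in SCA1 mice). Falls within those limits are not excluded.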

Other observations

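Eomes and Calb2 differed between the WT mice of the inferred batches. Eomes was 10.6 to 35.1 CPM in the 4 WT mice of batch 1 and 26.8 to 49.8 CPM in the 4 of batch 2. Calb2 was 434 to 473 CPM and 639 to 702 CPM, ranges that do not overlap. Lmx1a was 0.858 to 2.87 and 1.03 to 1.83 CPM. The Calb2 gap between WT groups was thus wider than that between SCA1 and WT mice within batch 1.

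The ratio of Chrna3 to each member was compared after the levels had been seen. On the log2 scale, Chrna3 over Calb2 was -10.6 to -9.71 in SCA1 mice and -8.25 to -7.60 in their WT mice, and Chrna3 over Lmx1a was -3.19 to -1.32 against -0.72 to 1.25, without overlap in either case (exact permutation p = 0.0286 for both, and adjusted p of 0.0686 over 12 tests). Chrna3 alone already separated these groups, so the ratios carry its fall. Chrna3 over Eomes overlapped, at -5.72 to -3.79 against -4.50 to -2.40 (exact permutation p = 0.0571). In SCA1 S776A and S776A double mice, Chrna3 over Calb2 was again below WT without overlap, at -9.35 to -8.79 and -9.49 to -8.81 (exact permutation p = 0.0286 for both), whereas Chrna3 over Eomes (exact permutation p = 0.0857 and 0.114) and over Lmx1a (exact permutation p = 0.171 and 0.2) overlapped WT. In WT S776A homozygous mice Chrna3 over Eomes was higher than in WT, at -3.67 to -2.55 against -5.05 to -3.69, without overlap (exact permutation p = 0.0286, adjusted p of 0.0686), and the other ratios overlapped.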
